A study of Mus musculus with 6 samples.

Results

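The genes described here are 8 targets of the transcription factor p53 that are tied to growth arrest: Cdkn1a, Mdm2, Ccng1, Gdf15, Phlda3, Trp53inp1, Btg2 and Gadd45a. They were chosen by symbol, and all 8 were found among the 32285 genes of the count tables. They were followed in single-cell RNA sequencing of heart cells other than cardiomyocytes, from wild-type (WT) mice of strain C57BL/6JRj and from Trpm4 knockout (KO) mice of strain B6.Cg-Trpm4tm1.2-PG. Trpm4 encodes a cation channel opened by intracellular calcium. All mice were male and between 8 and 12 weeks old. For each genotype there was 1 library from hearts taken 24 h after a sham operation, 1 from hearts taken 24 h after the left anterior descending artery of the heart had been tied off (ligation), which stops blood flow to part of the left ventricle, and 1 from hearts taken 72 h after ligation. Each library pooled the cells of 4 mice, and there was no sham library at 72 h. All 6 groups shared the same preparation, in which hearts were digested with thermolysin and papain, filtered, and sorted for live cells with Calcein-AM and DAPI before the 10x 3' assay. The genotypes differ in strain name as well as in Trpm4, and their origin in shared litters is not given in the sources used here.

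When DNA is damaged or a cell is otherwise stressed, p53 accumulates, binds paired copies of a short sequence element in its target genes, and raises their transcription. Among its targets are brakes on the cell cycle, genes that feed back on p53 itself, inhibitors of growth signalling and a secreted stress hormone. Several of these genes also answer to p53-independent inputs such as growth factors, cytokines, immediate-early signalling and the integrated stress response, a translation-linked pathway that acts through ATF4 and its relatives. In the injured heart, Cdkn1a and Gdf15 are used as markers of cellular stress.

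The 6 libraries held between 3365 and 6824 cells after filtering, with a median of 1351 to 8011 UMIs (unique molecular identifiers, each counting 1 captured RNA molecule) per cell. The KO library at 72 h stood apart, with the lowest median and 53.9% of its cells under 1500 UMIs. Between 3 and 14 cell barcodes were shared by any pair of libraries, at most 0.206% of the smaller library. Cells were clustered and named from marker genes, and the 4 large classes used for comparisons were endothelial cells, fibroblasts, monocyte/macrophage cells and neutrophils. In each of these 4 classes every marker of its own list had UMIs in all 6 libraries. Trpm4 itself was lower in KO than in WT endothelial cells at sham (6.59 against 10.8 CPM, the UMIs of a gene per 1e6 UMIs of the class). After ligation the same cells held 12 UMIs in KO and 23 in WT at 24 h, and 4 and 7 at 72 h, and the levels were not separated by counting error. In monocyte/macrophage cells at 24 h of ligation Trpm4 was at 4.57 CPM (3.65 to 5.65) in KO and 7.74 (6.0 to 9.83) in WT. At 72 h Trpm4 was at 2.4 (1.55 to 3.54) and 4.01 (3.31 to 4.81) in these cells. It was still detected in all 3 KO libraries, and since the 3' tags may lie outside the deleted part, this does not check the genotype.

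The start regions of the genes were read from RefSeq (GRCm38.p6), and 7 of the 8 genes had an entry, with 9 start sites in all. The p53 half-site, the short element of which p53 binds 2 adjacent copies, was searched in the 250 bases before and 50 after each start, on both strands. It was present in 8.36% of 32851 such regions, and in 4 of the 9 of these genes, which are shown because they are the regions holding it. A full element, here 2 half-sites at most 13 bases apart, was present in 24 regions (0.0731%), among them the upstream start of Cdkn1a, where the half-sites lie from -73 to -64 and from -51 to -42. The 250 bases before the start are printed 5′ to 3′ in the direction of the gene. Capitals mark matches to the p53 half-site and to the GC box GGGCGG, on either strand. The regions are chr17:29090729-29090978 on the plus strand for Cdkn1a, and on the minus strand chr10:117710759-117711008 for Mdm2, chr11:40755287-40755536 for Ccng1 and chr6:67037408-67037657 for Gadd45a.
Cdkn1a: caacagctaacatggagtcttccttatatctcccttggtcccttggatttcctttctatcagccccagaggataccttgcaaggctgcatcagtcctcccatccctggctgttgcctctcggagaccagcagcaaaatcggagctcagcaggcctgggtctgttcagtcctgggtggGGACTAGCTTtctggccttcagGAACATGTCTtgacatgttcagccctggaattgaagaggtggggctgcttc
Mdm2: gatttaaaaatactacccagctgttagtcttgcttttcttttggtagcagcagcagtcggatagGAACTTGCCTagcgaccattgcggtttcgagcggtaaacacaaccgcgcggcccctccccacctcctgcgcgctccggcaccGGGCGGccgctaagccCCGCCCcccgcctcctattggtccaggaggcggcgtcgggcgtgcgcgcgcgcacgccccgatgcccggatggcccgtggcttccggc
Ccng1: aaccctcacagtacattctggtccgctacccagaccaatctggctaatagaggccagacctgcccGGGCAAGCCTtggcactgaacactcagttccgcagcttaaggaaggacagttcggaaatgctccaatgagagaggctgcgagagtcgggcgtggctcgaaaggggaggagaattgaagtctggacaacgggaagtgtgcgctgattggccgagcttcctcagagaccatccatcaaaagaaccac
Gadd45a: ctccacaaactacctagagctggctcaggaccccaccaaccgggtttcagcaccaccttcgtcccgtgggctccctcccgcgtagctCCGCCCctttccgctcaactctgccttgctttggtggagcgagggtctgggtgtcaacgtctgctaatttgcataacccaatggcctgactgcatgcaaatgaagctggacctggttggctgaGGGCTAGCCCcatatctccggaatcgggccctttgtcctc
The single half-sites lie from -186 to -177 in Mdm2, from -185 to -176 in Ccng1 and from -40 to -31 in Gadd45a. The GC box was present in 35.7% of all regions and in 5 of these 9. TGACGTCA, the cyclic AMP response element, was present in 1.79% of all regions and in 1 of these 9, that of Btg2, from -166 to -159. CACGTG, an E-box, was in 7.15% and in 1 of these 9, a start of Gdf15. TATAAA (13.6%), TGANTCA, the AP-1 site (7.81%), and the CArG box (1.63%) were in none of the 9 windows. A match of letters is not evidence of binding.

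By the GENCODE M21 annotation of GRCm38 the genes lie at chr17:29090976-29100727 (Cdkn1a, ENSMUSG00000023067), chr10:117688875-117710758 (Mdm2, ENSMUSG00000020184), chr11:40748552-40755311 (Ccng1, ENSMUSG00000020326) and chr8:70629393-70632456 (Gdf15, ENSMUSG00000038508). Phlda3 (ENSMUSG00000041801) and Btg2 (ENSMUSG00000020423) lie on the same chromosome, at chr1:135766119-135769136 and chr1:134075170-134079120, Trp53inp1 (ENSMUSG00000028211) at chr4:11156431-11174379 and Gadd45a (ENSMUSG00000036390) at chr6:67035096-67037457. Cdkn1a and Gadd45a each overlap a gene on the other strand. Whether the counting used strand is not given in the sources used here.

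Levels are given as CPM, the UMIs of a gene summed over the cells of a class and divided by all UMIs of that class and library, in counts per 1e6. Ratios between libraries carry the exact conditional 95% interval of 2 Poisson counts, given in brackets on the log2 scale. With 1 library in each group there is no replicate check, no test was made, and every interval covers counting error only. A ratio was measured where both libraries held at least 100 cells of the class and the pair held at least 50 UMIs of the gene, and a gene is counted as different where it was at least 2-fold higher or lower. CPM depends on gene and transcript features, so levels are compared between classes and libraries for the same gene, and not between genes. The counts are sums over cells, so that fewer expressing cells and less RNA per cell cannot be told apart from the CPM alone.

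At sham the 8 genes had different home classes, and the order was much alike in the WT and KO libraries. Only classes with at least 50 cells in a library enter this order. Neutrophils held the highest level of Mdm2 (147 CPM in WT and 144 in KO), of Trp53inp1 (57.1 and 48.9) and of Btg2 (2060 and 1670). The Mdm2 and Btg2 levels stood above the next class beyond counting error in both libraries, whereas the Trp53inp1 intervals overlapped those of smooth muscle cells in WT and of pericytes in KO. Gadd45a was highest in platelets (242 and 144 CPM) and neutrophils (108 and 147), and the order of these 2 classes was not separated by counting error in KO. Monocyte/macrophage cells held the highest level of Cdkn1a (399 and 463). Phlda3 was a gene of the vessel wall and stroma, with 195 and 218 CPM in smooth muscle cells and 142 and 195 in fibroblasts, which did not differ from each other beyond counting error in KO. It was at 53.7 and 61.1 CPM in endothelial cells, and at 2.79 and 1.27 in neutrophils. Ccng1 was highest in the small cardiomyocyte class of the KO library (53 cells, 357 CPM, against 58.2 in monocyte/macrophage cells). In WT it was highest in monocyte/macrophage cells (63.0 CPM) among classes with enough cells, while the cardiomyocyte class of only 31 cells was at 277 CPM (189 to 391), and that class lay between 179 and 357 CPM in the 6 libraries. Gdf15 was at 0 to 15.8 CPM in every class at sham, and the top value, in WT endothelial cells, was 2.72 without 1 cell. The 0 counts of platelets allow up to 55.8 CPM in WT and 61.7 in KO, the level of 3 counts.

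**Figure D1:**
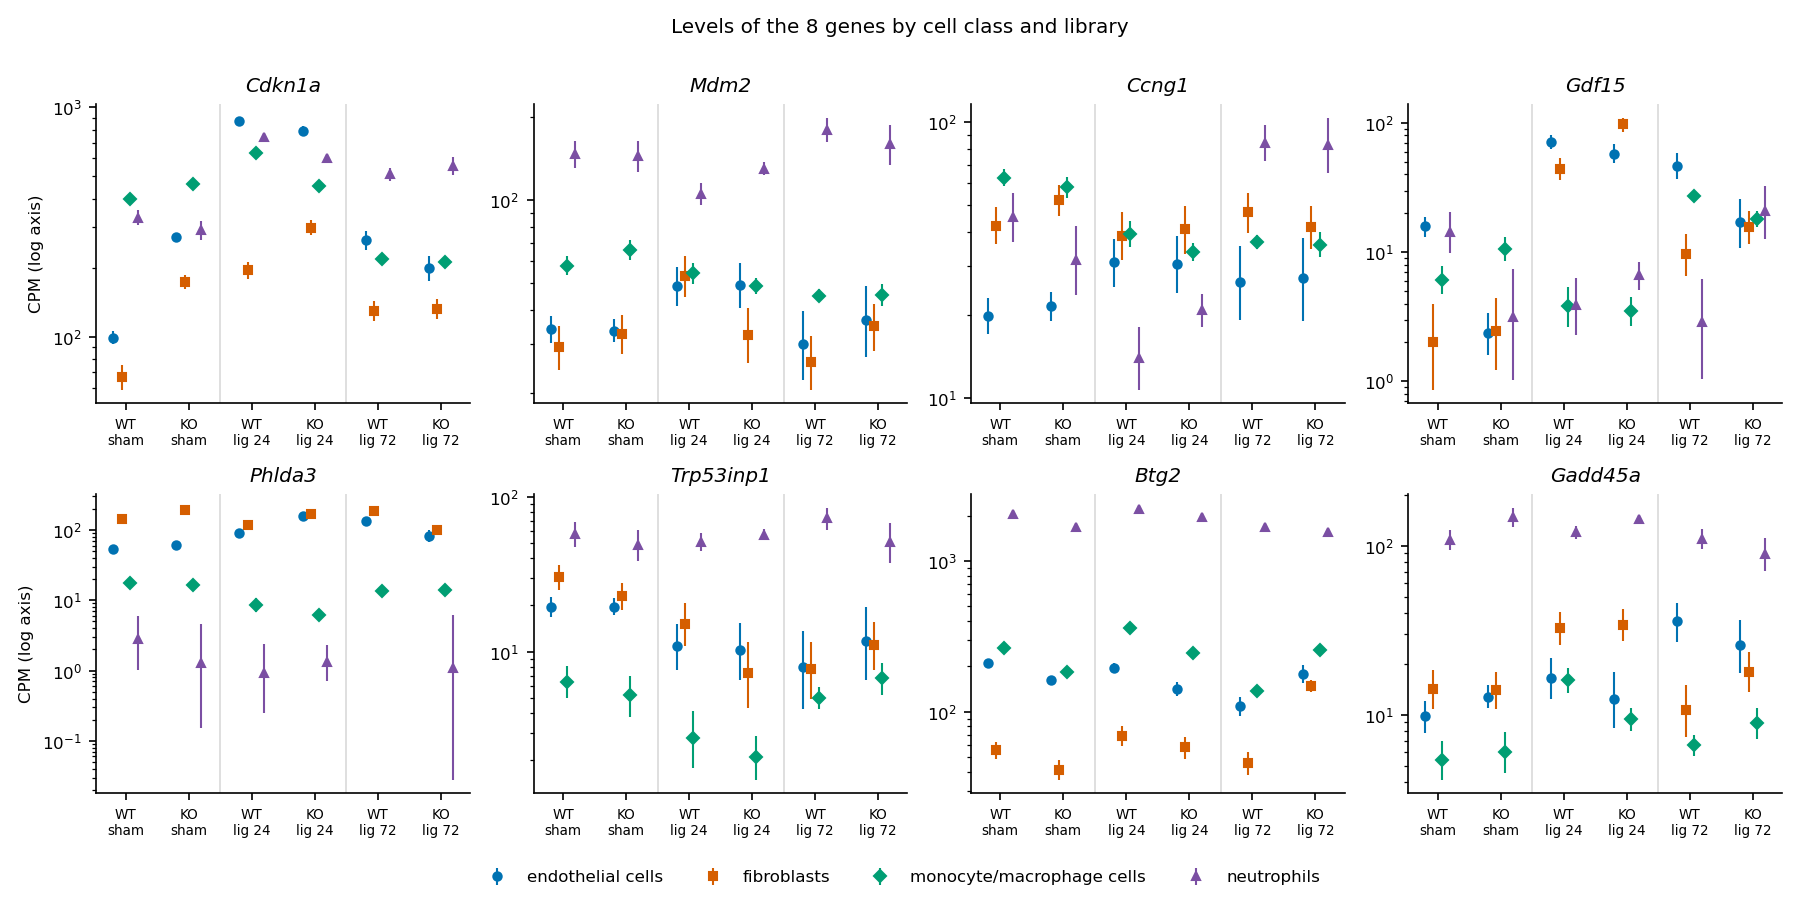
Level of each gene, in CPM on a log axis, in the 6 libraries (x axis; lig 24 and lig 72 are 24 h and 72 h after ligation) and 4 cell classes. Bars are exact Poisson 95% intervals, which cover counting error only, and a count of 0 is not drawn. Neutrophils hold the highest Mdm2, Btg2 and Gadd45a of these classes in all 6 libraries, and endothelial Cdkn1a stands at 869 and 790 CPM at 24 h of ligation against 99.2 and 273 at sham.

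Ligation at 24 h went with more Cdkn1a in endothelial cells and with more Gdf15 in endothelial cells and fibroblasts, in both genotypes, while Trp53inp1 was lower in all 3 of endothelial cells, fibroblasts and monocyte/macrophage cells. In endothelial cells 2 of 8 genes were at least 2-fold higher in WT, where 6.06% of all measured genes were 2-fold different either way, and 3 of 8 were higher in KO, where the share of all genes was 5.25%. None of the 8 was 2-fold lower there. In fibroblasts 3 of 8 were higher and none lower in WT (9.40% of all genes), and 2 were higher and 1 lower in KO (13.9%). In monocyte/macrophage cells 1 was higher and 2 were lower in WT (6.39%), and 3 were lower in KO (9.21%). In neutrophils 1 of 6 was higher and 1 lower in WT (13.4%), and 2 of 7 were higher in KO (6.93%), Cdkn1a and Gdf15, the latter from 5 UMIs at sham and within counting error (2.08-fold, 0.848 to 6.63). The median log2 ratio of the measured genes was 0.69 in WT and 0.53 in KO endothelial cells, where the median of all genes was 0.03 and 0.02, and it was -0.39 and -0.61 in monocyte/macrophage cells (all genes -0.12 and -0.28).

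From 24 h to 72 h after ligation much of this went the other way, in a comparison in which time and the stage of injury go together. In endothelial cells 1 of 7 measured genes was 2-fold higher and 1 lower in WT (11.7% of all genes), and 1 was higher and 2 lower in KO (12.2%). In fibroblasts none was higher and 3 of 8 were lower in WT (21.8%), and 1 was higher and 2 lower in KO (18.6%). In monocyte/macrophage cells 1 of 8 was higher and 3 were lower in WT (19.2%), and 3 were higher and 1 lower in KO (12.3%). In neutrophils 1 of 6 was higher in WT (39.0%) and 2 of 7 in KO (35.0%), below the share of all genes in both. The 24 h libraries serve in both sets of ratios, so the later ratios are not independent of the earlier ones.

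**Figure D2:**
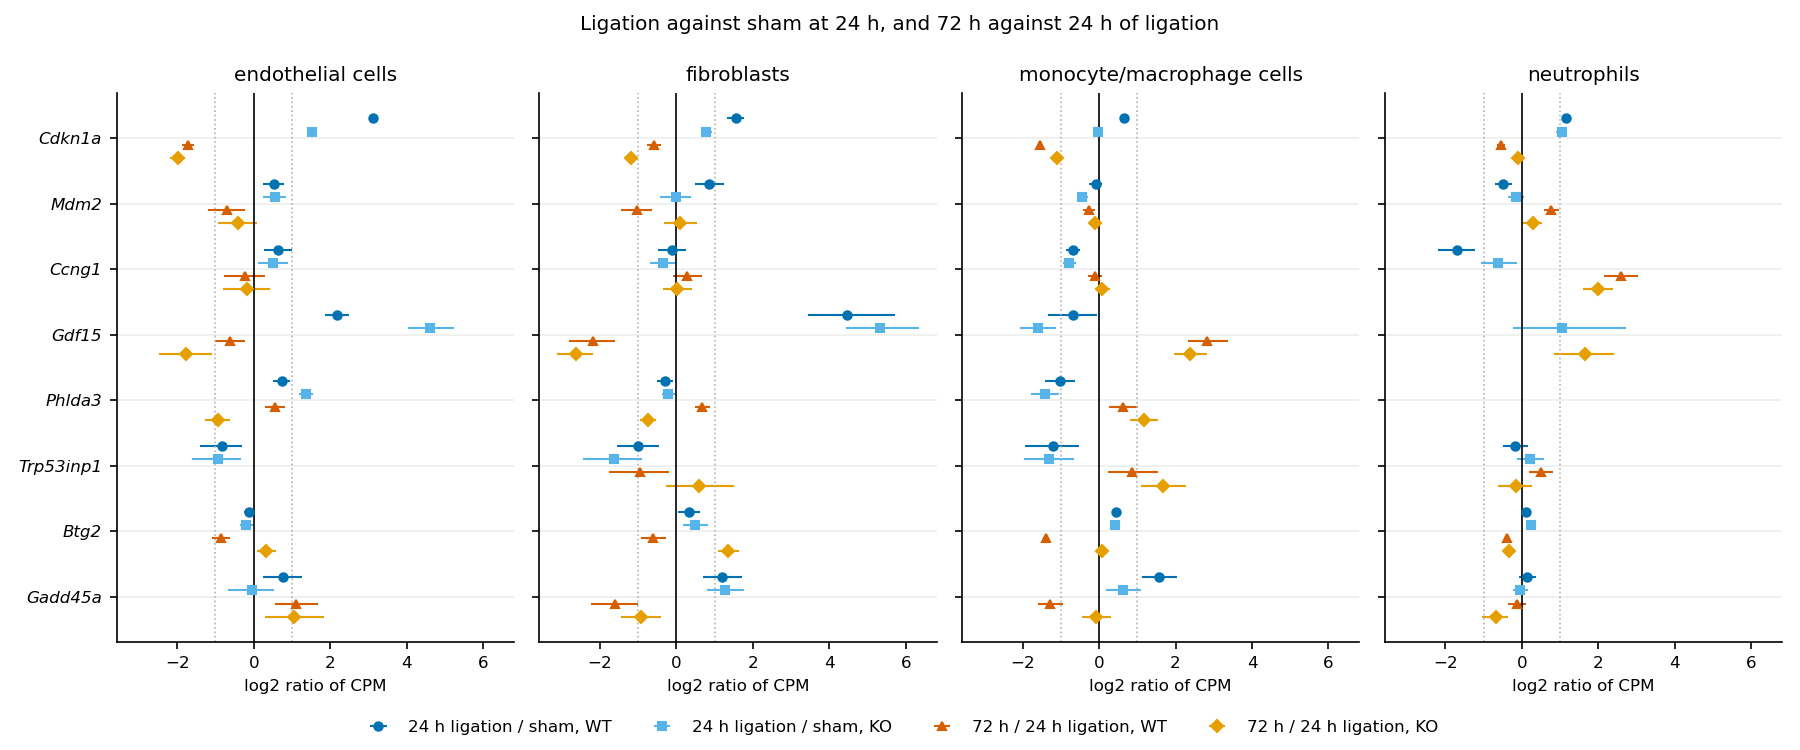
Log2 ratio of CPM for each gene and class, for ligation against sham at 24 h (blue) and for 72 h against 24 h of ligation (orange), in WT (dark) and KO (light). Bars are 95% intervals of counting error, dotted lines mark 2-fold, and pairs with too few UMIs are left out. Endothelial Cdkn1a and the Gdf15 of endothelial cells and fibroblasts lie to the right of 0 at 24 h and to the left of 0 from 24 h to 72 h in both genotypes, while Gdf15 of monocyte/macrophage cells lies on the opposite sides.

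Cdkn1a encodes p21, the inhibitor of cyclin-dependent kinases that holds cells before DNA replication. In endothelial cells it was at 99.2 CPM in the WT sham library and 273 in the KO sham library, at 869 and 790 at 24 h of ligation, and at 264 and 199 at 72 h. Both 24 h ligation libraries stood above both sham libraries and both 72 h libraries. The WT level was 8.76-fold that of sham (log2 ratio 3.13 [3.02, 3.24]), and the KO level was 2.89-fold (1.53 [1.45, 1.61]), and the gap between these ratios goes with the higher sham level of the KO. From 24 h to 72 h the level was lower by a log2 ratio of -1.72 [-1.87, -1.57] in WT and -1.99 [-2.18, -1.80] in KO. After thinning every cell to 1000 UMIs, the share of endothelial cells with a Cdkn1a UMI was 7.18% and 21.5% in the WT and KO sham libraries, 50.7% and 41.2% at 24 h of ligation, and 19.4% and 14.7% at 72 h (unthinned 17.9%, 48.0%, 74.4%, 67.0%, 40.2% and 22.1%). Cells with under 1000 UMIs were left out, 80 and 51 cells at sham, 84 in each library at 24 h of ligation, and 22 in WT and 272 of 687 in KO at 72 h. B cells of the 4 ligation libraries had a thinned share of 0 to 3.08%, at a median of 2529.5 to 3031 UMIs per cell against 1164 to 3651 in the endothelial cells of these libraries.

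The endothelial difference was present inside clusters as well. Ligation was compared with sham in the 3 endothelial clusters with at least 50 cells in all 4 libraries at 24 h, which were led by Fabp4 and Cd36 (cluster 1), Fabp4 and Rbp7 (cluster 2) and Fabp4 and Sparc (cluster 5). All 3 were higher after ligation in both genotypes, by log2 ratios between 2.53 and 3.26 for WT and between 1.07 and 2.30 for KO. Cluster 5 held 40.2% of WT and 36.4% of KO endothelial cells at 24 h of ligation, against 15.6% and 11.1% at sham. The other vascular classes pointed the same way, with smooth muscle cells at 32.1 CPM in the WT and 124 in the KO sham library against 315 and 485 at 24 h of ligation, and pericytes at 24.7 (7 UMIs) and 63.9 (17) against 359 and 285.

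In fibroblasts Cdkn1a was at 66.7 CPM in WT and 174 in KO at sham, at 195 and 299 at 24 h of ligation, and at 130 and 132 at 72 h. The 24 h ratio to sham was 1.55 [1.33, 1.77] on the log2 scale in WT and 0.78 [0.63, 0.93] in KO, the latter under 2-fold. At 72 h in WT, 162 of the 401 UMIs came from 1 cell, and without it the level was 77.2 CPM and the ratio to 24 h moved from -0.59 to -1.22. In KO that ratio was -1.18 [-1.36, -1.0]. Fibroblasts thus also had their highest Cdkn1a at 24 h of ligation in both genotypes.

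In the 2 myeloid classes Cdkn1a lay between 212 and 744 CPM over the 6 libraries. Monocyte/macrophage cells were at 399 and 463 CPM at sham, at 632 and 453 at 24 h of ligation and at 218 and 212 at 72 h in WT and KO. Only the WT library was higher at 24 h than at sham (log2 ratio 0.66 [0.60, 0.72], under 2-fold), whereas the KO ratio of -0.03 lay within counting error. Both genotypes were lower at 72 h than at 24 h, with log2 ratios of -1.54 and -1.09, the KO value being -0.96 as a mean over cells. Neutrophils were at 331 and 291 CPM at sham, 744 and 600 at 24 h of ligation and 510 and 557 at 72 h, which gave 24 h ratios of 1.17 [1.05, 1.28] in WT and 1.04 [0.91, 1.19] in KO. In the 3 neutrophil clusters present in both conditions the ratios were smaller, between -0.02 and 0.39 for WT and between 0.21 and 0.96 for KO. A cluster led by S100a9, S100a8, Cxcl2 and Cxcl3 (cluster 3) held 57.6% of WT and 38.9% of KO neutrophils at 24 h of ligation, had under 50 cells in each sham library, and was at 890 and 868 CPM. Neutrophils thus differed in make-up between sham and 24 h of ligation, and the part of this in the Cdkn1a ratios was not tested. The ratios inside clusters, -0.02 to 0.39 in WT and 0.21 to 0.96 in KO, stand beside class ratios of 1.17 and 1.04.

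Between genotypes, Cdkn1a differed most at sham and in cells of the vessel wall and stroma. Endothelial cells had 2.75-fold more in KO than in WT (log2 ratio 1.46 [1.35, 1.57]), fibroblasts 2.62-fold (1.39 [1.19, 1.59]) and smooth muscle cells 3.85-fold (1.95 [1.42, 2.51]). The fibroblast ratio was 0.85 without doublet removal, below 2-fold. The thinned share of cells with a UMI was 12.2% in KO and 7.01% in WT fibroblasts (unthinned 40.9% and 19.5%), with 3 and 4 cells left out. In smooth muscle cells, with 176 UMIs in KO and 36 in WT, that share did not follow the CPM (4.05% in KO and 5.10% in WT, or 23.9% and 13.1% unthinned, with 4 and 3 cells left out), so this class is given as a value only. All 5 endothelial clusters with at least 50 cells in both sham libraries had more in KO, from 187 to 231 CPM in cluster 5, from 78.3 to 267 in cluster 1, from 105 to 301 in cluster 2, from 110 to 322 in a cluster with interferon-induced genes (cluster 29) and from 34.6 to 224 in one led by Vwf and Plvap (cluster 25). The ratio was 0.21 in monocyte/macrophage cells and -0.19 in neutrophils. After ligation it was smaller or the other way round, with endothelial ratios of -0.14 [-0.22, -0.05] at 24 h, which was 0.003 with at most 10% mitochondrial UMIs, and -0.40 [-0.63, -0.18] at 72 h, and fibroblast ratios of 0.62 and 0.03.

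The same sham libraries differed in circadian clock genes, which were chosen after their values were seen. Dbp, a clock output gene, was at 366 CPM in WT and 59.8 in KO endothelial cells, at 176 and 29.4 in fibroblasts, and at 212 and 42.2 in smooth muscle cells. Arntl, which encodes the clock activator BMAL1 and peaks opposite to Dbp, was at 4.42 CPM in WT and 23.0 in KO endothelial cells, and at 12.2 and 40.5 in fibroblasts. Monocyte/macrophage cells differed too, with Dbp at 15.7 and 5.35 CPM and Arntl at 6.3 and 13.4. At 24 h of ligation Dbp was at 30.4 CPM in WT and 14.1 in KO endothelial cells. It was at 31.8 and 7.71 in fibroblasts and at 1.27 and 1.29 in monocyte/macrophage cells. Arntl was then at 23.9 and 22.6 in endothelial cells and 26.0 and 28.0 in fibroblasts, within counting error. The time of day of sampling is not given in the sources used here, and the part of these differences in the Cdkn1a result was not tested. The list of genes that respond to tissue dissociation had a median KO to WT log2 ratio of 0.09 in endothelial cells and 0.10 in fibroblasts at sham, with single genes between -1.48 (Nr4a1) and 1.89 (Hspa1b) in endothelial cells.

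**Figure D3:**
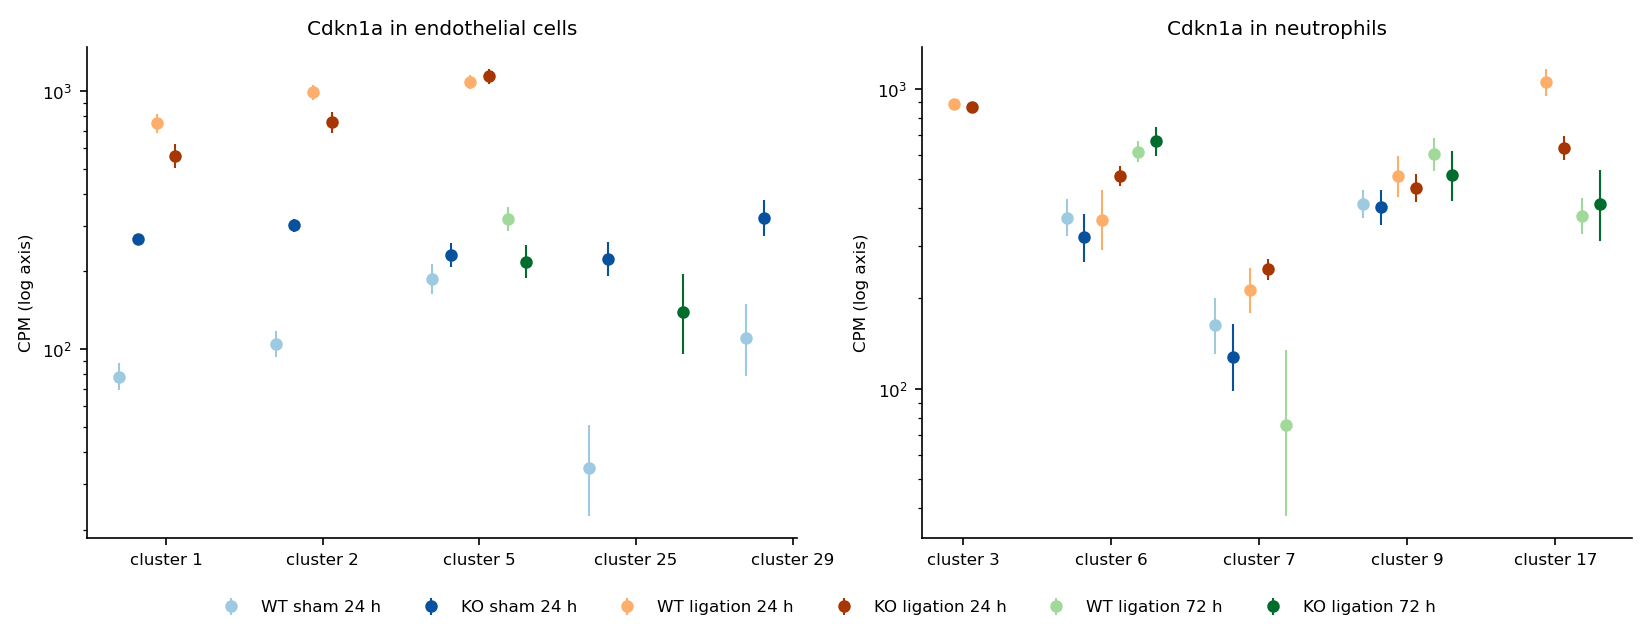
Cdkn1a in CPM, on a log axis, in each endothelial (left) and neutrophil (right) cluster with at least 50 cells in the library; colours are the 6 libraries and bars are 95% intervals of counting error. In all 5 endothelial clusters the KO sham point lies above the WT sham point, while the neutrophil clusters seen in both conditions differ less between sham and 24 h of ligation than cluster 3, drawn for 24 h of ligation alone, differs from them.

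Mdm2 and Ccng1 belong to the feedback arm of the pathway. Mdm2 encodes the ubiquitin ligase that marks p53 for degradation, and is among the most direct p53 targets. In endothelial cells Mdm2 was at 34.0 and 33.6 CPM in the WT and KO sham libraries, 48.8 and 49.0 at 24 h of ligation, and 30.1 and 36.6 at 72 h. The 2 genotypes were nearly level at each 24 h condition, and ligation went with a modest difference of 0.52 [0.23, 0.80] in WT and 0.55 [0.24, 0.85] in KO on the log2 scale. Of clusters 1, 2 and 5, it lay beyond counting error in cluster 5 alone, at 2.49-fold in WT (1.69 to 3.74) and 2.54-fold in KO (1.72 to 3.78), and cluster 5 is the one whose share of the class was larger after ligation. Clusters 1 and 2 had log2 ratios of 0.08 and -0.02 in WT and -0.50 and -0.58 in KO, all within counting error. The endothelial KO to WT ratio at sham was -0.02 for Mdm2, against 1.46 for Cdkn1a in the same cells.

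In fibroblasts Mdm2 was at 29.2 and 32.7 CPM at sham, 53.1 and 32.4 at 24 h of ligation and 25.8 and 34.8 at 72 h, so that the WT library at 24 h of ligation stood above the other 5. There the KO to WT log2 ratio was -0.71 [-1.13, -0.30]. The WT ratio of 72 h to 24 h was -1.04 [-1.46, -0.63], and it was -0.38 without doublet removal. Neutrophils had 147 and 144 CPM at sham, 105 and 130 at 24 h of ligation and 180 and 159 at 72 h. The 24 h level was below sham beyond counting error in WT, and in KO the ratio of 0.902 (0.783 to 1.04) was not. The KO ratio of 72 h to 24 h, 0.29 [0.03, 0.54], was -0.22 relative to the median gene. Monocyte/macrophage cells ranged from 45.0 to 66.0 CPM over the 6 libraries.

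Ccng1 encodes cyclin G1, a cyclin that recruits a phosphatase to Mdm2 and so feeds back on p53. Its sharpest pattern was in neutrophils, at 45.5 CPM (98 UMIs) and 31.7 (50) at sham, 14.0 (61) and 20.8 (201) at 24 h of ligation, and 84.3 (176) and 82.8 (75) at 72 h. The 72 h libraries of both genotypes stood above all others and the 24 h ligation libraries below all others. The 72 h level was 6.01-fold the 24 h level in WT (log2 ratio 2.59 [2.16, 3.03]) and 3.99-fold in KO (2.0 [1.59, 2.38]). These are the neutrophil comparisons in which 39.0% and 35.0% of all genes were 2-fold different, with all-gene medians of 0.55 and 0.51. The class also changed in make-up, since cluster 3, with Ccng1 at 13.2 and 16.8 CPM, held 686 of the WT and 1346 of the KO neutrophils at 24 h of ligation and 9 and 1 at 72 h. Cluster 6, led by S100a8, S100a9 and Il1b, was 7.30% of WT and 17.6% of KO neutrophils at 24 h and 46.6% and 55.6% at 72 h. Within it Ccng1 was at 28.6 CPM (6 UMIs) and 28.7 (37) at 24 h and at 117 (109) and 90.6 (42) at 72 h, ratios of 4.09 (1.82 to 11.4) in WT and 3.15 (1.98 to 5.04) in KO. In monocyte/macrophage cells Ccng1 was at 63.0 and 58.2 CPM at sham and between 33.9 and 39.4 in the 4 ligation libraries. In endothelial cells it was between 19.8 and 31.1 CPM, with ratios of 24 h ligation to sham of 0.65 and 0.51 on the log2 scale.

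Gdf15 encodes a secreted stress hormone of the TGF-beta superfamily that is also induced by the integrated stress response. In fibroblasts it was at 2.0 CPM (8 UMIs) in WT and 2.45 (11) in KO at sham, 44.2 (114) and 97.3 (240) at 24 h of ligation, and 9.69 (30) and 15.7 (47) at 72 h. Both 24 h ligation libraries stood above the other 4. The ratio to sham was 22.1-fold in WT (log2 4.47 [3.44, 5.71]) and 39.8-fold in KO (5.31 [4.45, 6.33]), from sham levels that rest on few UMIs. At 24 h of ligation the KO level was above WT by 1.14 [0.81, 1.47], and a fibroblast cluster led by Cxcl5, Mt2 and Timp1 (cluster 33) was at 88.1 CPM in WT and 163 in KO. That cluster held 28.5% of WT and 40.1% of KO fibroblasts at 24 h of ligation, and 4.00% and 6.49% at sham.

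Endothelial Gdf15 was concentrated in few cells. The levels were 15.8 CPM (139 UMIs) in the WT and 2.38 (30) in the KO sham library, 71.4 (230) and 58.0 (136) at 24 h of ligation, and 46.6 (76) and 17.1 (22) at 72 h. In the WT sham library 115 of the 139 UMIs came from 1 cell, and without the cell with the most Gdf15 UMIs the levels were 2.72 CPM in WT sham, 29.5 and 36.7 at 24 h of ligation and 23.9 in WT at 72 h. The KO to WT ratio at sham, -2.73 with all cells, was -0.58 without it. Thinned to 1000 UMIs per cell, 0.176% and 0.197% of endothelial cells had a Gdf15 UMI at sham, and 2.30% and 1.48% at 24 h of ligation (unthinned 0.595%, 0.419%, 4.07% and 2.90%), with the same cells left out as for Cdkn1a. Most of it came from cluster 5, at 204 and 166 CPM at 24 h of ligation, whereas clusters 1 and 2 were at 0 to 12.6. The 217 and 131 UMIs of cluster 5 include the cell with the most, which held 135 in WT and 50 in KO.

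Monocyte/macrophage Gdf15 followed another time course. It was at 6.12 and 10.6 CPM at sham, 3.81 and 3.5 at 24 h of ligation, and 27.1 and 18.2 at 72 h, so both 72 h libraries stood above the other 4. The ratio of 72 h to 24 h was 2.83 [2.33, 3.38] on the log2 scale in WT and 2.38 [1.97, 2.81] in KO. Inside cluster 4 it was 3.61 in WT and 2.94 in KO. Inside cluster 12 of the KO the levels were 21.4 and 26.1 CPM, a ratio of 0.28 within counting error. Cluster 12 held 84 KO cells at 24 h and 405 at 72 h, and the part of class make-up was not tested. At sham 1 cell held 45.6% of the WT and 36.3% of the KO UMIs, and without the cell with the most UMIs the levels were 3.33 and 6.74 CPM at sham and 2.89 and 2.96 at 24 h of ligation. The ratio of 24 h ligation to sham moved from -0.68 to -0.21 in WT and from -1.60 to -1.19 in KO. In endothelial cells and fibroblasts of the same libraries the 72 h levels were below those at 24 h. In WT endothelial cells much of this gap rested on 1 cell in each library. Without it the levels were 29.5 CPM (95 UMIs) at 24 h of ligation and 23.9 (39 UMIs) at 72 h. The thinned shares of endothelial cells with a Gdf15 UMI were not separated between these times by counting error. No Gdf15 UMI was found in B cells of the 4 ligation libraries (66 to 189 cells each), which allows a level of up to 5.15 to 15.9 CPM, the level of 3 counts.

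**Figure D4:**
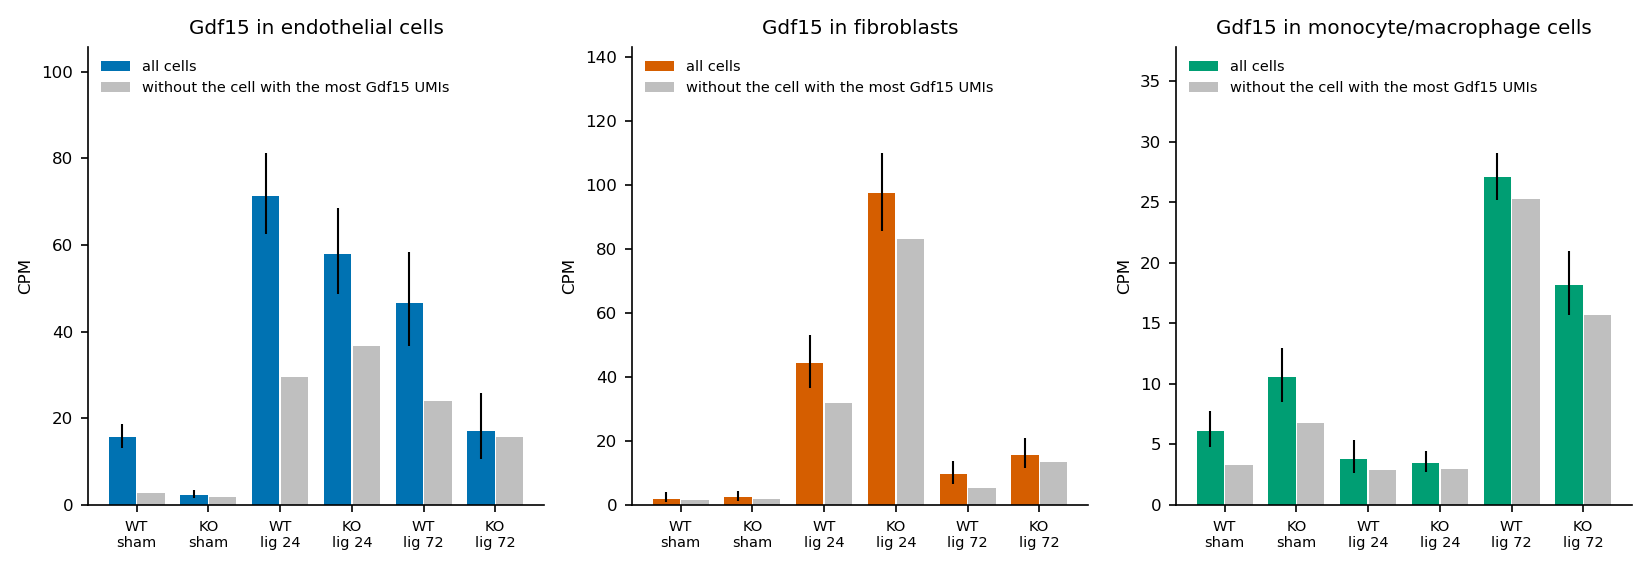
Gdf15 in CPM in 3 cell classes and 6 libraries, with all cells (coloured bars, with 95% intervals of counting error) and without the single cell that held the most Gdf15 UMIs (grey bars). In endothelial cells of the WT sham library the level is 15.8 with that cell and 2.72 without it, while monocyte/macrophage cells stand highest at 72 h after ligation.

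Phlda3 and Trp53inp1 act downstream of p53 on survival signals. Phlda3 encodes a small PH-domain protein that competes with AKT for membrane lipids and so restrains AKT signalling. In endothelial cells it was at 53.7 and 61.1 CPM at sham, 89.1 and 157 at 24 h of ligation, and 132 and 81.8 at 72 h. WT was thus highest at 72 h and KO at 24 h, and the KO to WT log2 ratio was 0.82 [0.59, 1.05] at 24 h of ligation and -0.69 [-1.04, -0.35] at 72 h. In the 2 endothelial clusters measured at 24 h the KO ratios were 0.76 and 0.81, and in cluster 5, the 1 cluster measured at 72 h, the ratio was -0.83. The endothelial class was 76.0% cluster 5 in the KO library at 72 h and 49.8% in WT.

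In fibroblasts Phlda3 was at 142 and 195 CPM at sham, 116 and 168 at 24 h of ligation, and 187 and 101 at 72 h. KO was above WT at both 24 h conditions, with log2 ratios of 0.46 and 0.53, and below it at 72 h, with -0.89. Within the fibroblast cluster led by Col1a1, Col3a1 and Col1a2 (cluster 14) the 72 h ratio was smaller. It was -0.40, from 177 CPM in WT to 134 in KO, and the part of class make-up in the class ratio was not tested. Monocyte/macrophage cells held less, between 6.24 and 17.6 CPM, and had their lowest levels at 24 h of ligation, at 8.66 in WT and 6.24 in KO. These were below sham by log2 ratios of -1.02 [-1.42, -0.63] and -1.42. Neutrophils had at most 2.79 CPM, and 0 UMIs in the WT library at 72 h, where 3 counts would be 1.44 CPM.

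Trp53inp1 encodes a stress-induced nuclear and autophagy protein that acts together with p53. In endothelial cells and fibroblasts it was lower at 24 h of ligation while Cdkn1a and Gdf15 were higher, whereas in monocyte/macrophage cells Gdf15 was lower as well. In fibroblasts it was at 30.2 and 22.7 CPM at sham, 15.1 and 7.30 at 24 h of ligation, and 7.75 and 11 at 72 h, so that both sham libraries stood above all 4 ligation libraries. The ratios to sham were -1.0 in WT, just under 2-fold, and -1.64 in KO. In endothelial cells the levels were 19.4 and 19.5 CPM at sham, 10.9 and 10.2 at 24 h of ligation, and 7.98 and 11.7 at 72 h, with 24 h ratios of -0.83 and -0.93. Among monocyte/macrophage cells they were 6.39 and 5.23 at sham, 2.77 and 2.10 at 24 h and 5.05 and 6.71 at 72 h, lower only at 24 h of ligation. Neutrophils kept between 48.9 and 72.3 CPM throughout.

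Btg2 and Gadd45a are growth arrest genes that respond quickly to many stimuli. Btg2 encodes an antiproliferative protein that speeds the removal of mRNA poly(A) tails. Neutrophils had 2060 and 1670 CPM at sham, 2210 and 1960 at 24 h of ligation, and 1680 and 1550 at 72 h, and every ratio between these libraries was under 2-fold. In fibroblasts Btg2 was at 55.4 and 41.2 CPM at sham, 69.4 and 58.0 at 24 h of ligation, and 45.5 and 148 at 72 h. The KO library at 72 h stood above the other 5, 3.26-fold above WT (log2 ratio 1.70 [1.43, 1.99]).

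The 72 h difference in Btg2 was seen in other classes too. In monocyte/macrophage cells the levels were 263 and 183 CPM at sham, 360 and 246 at 24 h of ligation, and 137 and 258 at 72 h, so that KO was below WT at both 24 h conditions (-0.52 and -0.55) and above it at 72 h (0.92 [0.84, 0.99]). All 6 monocyte/macrophage clusters measured at 72 h were higher in KO, all 4 measured at sham were lower, and all 3 measured at 24 h of ligation were lower. In endothelial cells the levels were 212 and 163 at sham, 196 and 142 at 24 h of ligation and 109 and 178 at 72 h, with a KO to WT ratio of 0.72 [0.43, 1.01] at 72 h. Neutrophils did not share it (-0.12).

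The KO library at 72 h differed from WT in several ways beside Btg2. Of its fibroblasts, 67.0% lay in cluster 14, led by Col1a1, Col3a1 and Col1a2, and 30.4% in cluster 24, led by Dcn and Gsn, of which 93.4% came from this library. In WT at 72 h, 63.4% lay in cluster 14. Within cluster 14 Btg2 was at 98.7 CPM in KO and 42.5 in WT, and cluster 24 of the KO library was at 239. Summed over all 11 neutrophil markers, its fibroblasts had 2690 CPM against 244 in WT and its endothelial cells 3810 against 212, while its neutrophils had 68500. Summed over 24 monocyte/macrophage markers, its fibroblasts had 12100 CPM against 2780 in WT. The dissociation-responsive genes had a median KO to WT log2 ratio at 72 h of 0.74 in endothelial cells, 0.45 in fibroblasts and 0.57 in monocyte/macrophage cells, and -0.01 in neutrophils. At 24 h of ligation, where the Btg2 ratios were -0.46, -0.26 and -0.55 in these 3 classes, the same medians were -0.59, -0.61 and -0.41. The part of carried-over RNA, of the class make-up and of the dissociation response in the Btg2 and Phlda3 ratios was not tested.

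Gadd45a encodes a stress sensor that binds cell cycle and repair proteins. In fibroblasts it was at 14.2 and 14.0 CPM at sham, 32.6 and 34.1 at 24 h of ligation, and 10.7 and 18.0 at 72 h, with both 24 h ligation libraries above the other 4. The ratios to sham were 1.20 in WT and 1.28 in KO. From 24 h to 72 h the log2 ratio was -1.61 in WT, or -0.64 without doublet removal, and -0.92 in KO. In endothelial cells the levels were 9.75 and 12.8 CPM at sham, 16.5 and 12.4 at 24 h of ligation, and 35.6 and 25.7 at 72 h, highest at 72 h in both genotypes. The WT ratio of 72 h to 24 h was 1.11, and 0.48 as a mean over cells. For monocyte/macrophage cells Gadd45a was at 5.40 and 6.04 at sham and 16.1 and 9.36 at 24 h of ligation, with ratios of 1.57 and 0.63. Neutrophils ranged from 89.5 to 147 CPM, and the cluster led by S100a9, S100a8 and Retnlg (cluster 7) was at 201 CPM (188 to 214) summed over the libraries. The platelet cluster was at 174 CPM (132 to 225) by the same sum, and the libraries add different shares of cells to each.

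Set side by side, KO and WT differed by 2-fold in few of the 8 genes. In endothelial cells 1 of 8 was higher (Cdkn1a) and 1 lower (Gdf15, which rested on 1 cell) at sham, where 1.55% of all genes were 2-fold different, none of 8 at 24 h of ligation (2.15%), and 1 of 7 was lower, again Gdf15, at 72 h (5.14%). The 72 h value for Gdf15 was -1.44, and -0.62 without the cell with the most UMIs. In fibroblasts 1 of 7 was higher at sham (Cdkn1a, 1.68%), 1 of 8 was higher (Gdf15) and 1 lower (Trp53inp1, -1.05 [-1.94, -0.21]) at 24 h of ligation (3.30%), and 1 of 8 was higher at 72 h (Btg2, 12.6%). In monocyte/macrophage cells none of 8 was 2-fold different at sham (2.39%), at 24 h of ligation (1.91%) or at 72 h (4.16%). In neutrophils none was either, among 6 genes at sham (1.65%), 7 at 24 h of ligation (3.25%) and 6 at 72 h (1.58%). The fibroblast Trp53inp1 call was lost under several other settings, with ratios of -0.73 without doublet removal and -0.86 as a mean over cells. Among monocyte/macrophage cells at 24 h of ligation 5 of the 8 genes were lower in KO beyond counting error and none higher, where 33.1% of all genes were lower and 15.2% higher by the same rule, with a median log2 ratio of -0.44 against -0.13 over all genes.

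**Figure D5:**
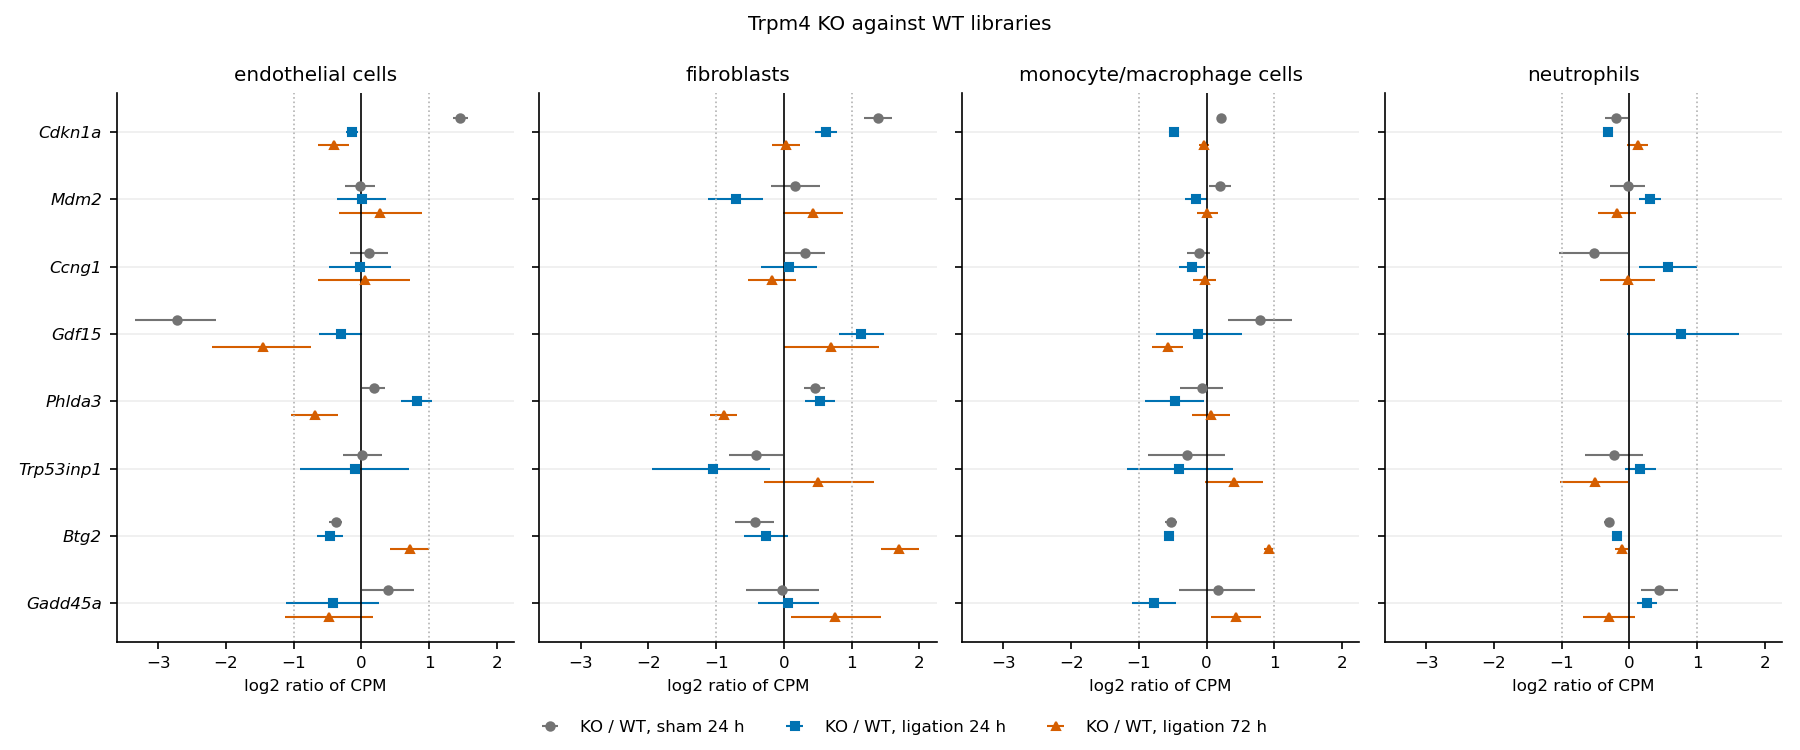
Log2 ratio of CPM in KO against WT for each gene and class at sham (grey), 24 h of ligation (blue) and 72 h of ligation (orange), with 95% intervals of counting error; dotted lines mark 2-fold. Cdkn1a at sham lies at 1.46 in endothelial cells and 1.39 in fibroblasts and near 0 in both myeloid classes, and Btg2 at 72 h lies to the right of 0 in all classes but neutrophils.

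A list of 24 other p53 targets, such as the cell death genes Bax and Fas and the sestrins, which restrain growth signalling, had no gene 2-fold different in KO endothelial cells at sham among 21 measured, where 1.55% of all genes were 2-fold different, with a median log2 ratio of -0.14 and a range from -0.78 (Perp) to 0.61 (Tigar). Trp53 itself was at 60.1 CPM in WT and 55.7 in KO endothelial cells at sham, 85.1 and 84.0 at 24 h of ligation and 117 and 90.4 at 72 h. It was higher at 24 h of ligation than at sham by log2 ratios of 0.50 [0.29, 0.72] in WT and 0.59 [0.36, 0.82] in KO, both under 2-fold. At 24 h of ligation 4 of 20 measured targets were 2-fold higher than sham in WT endothelial cells and none lower (6.06% of all genes either way), from -0.65 for Sesn1 to 1.64 for Plk3, with a median of 0.38. In KO 5 of 21 were higher and none lower (5.25%), from -0.78 for Sesn1 to 1.67 for Perp, with a median of 0.11. In WT fibroblasts 1 of 15 was 2-fold higher at 24 h of ligation and none lower (9.40%), from -0.88 for Ppm1d to 1.72 for Aen, and in KO 3 of 17 were higher and 1 lower (13.9%), from -1.09 for Sesn1 to 1.38 for Plk3. In neutrophils from 24 h to 72 h, 7 of 15 were higher and 2 lower in WT (39.0%), from -2.10 for Fas to 3.13 for Aen, and 5 of 15 higher and 1 lower in KO (35.0%), from -1.62 for Fas to 3.20 for Aen, in libraries where all genes had medians of 0.55 and 0.51. Neutrophil Trp53 was at 7.82 and 11.2 CPM at 24 h of ligation and 31.1 and 30.9 at 72 h.

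The integrated stress response list, which holds Atf3, Atf4 and the asparagine synthetase gene Asns, was higher at 24 h of ligation in endothelial cells and fibroblasts, where Gdf15 was higher beyond counting error in both genotypes. In fibroblasts 7 of 9 measured genes were 2-fold higher in WT (9.40% of all genes were 2-fold different), from 0.67 for Phgdh to 2.01 for Atf3, and 6 of 9 in KO (13.9%), from 0.57 for Ddit4 to 2.69 for Asns, with medians of 1.35 and 1.39 against -0.06 and -0.21 over all genes. In endothelial cells 4 of 7 were 2-fold higher in WT (6.06%), from 0.48 for Trib3 to 2.43 for Atf3, and 3 of 7 in KO (5.25%), from -0.38 for Ddit4 to 2.28 for Atf3. Among monocyte/macrophage cells 1 of 8 was 2-fold higher in WT (6.39%), with a median of 0.61, and in KO none was higher and 1 lower (9.21%), with a median of -0.20. In neutrophils none of 6 was 2-fold higher in either genotype, and 1 was lower in KO (13.4% and 6.93%). The dissociation-responsive list was also higher at 24 h of ligation, with medians of 0.93 in WT and 0.52 in KO endothelial cells and 1.09 and 0.33 in fibroblasts, and its part in the ligation ratios was not tested. Of the other growth arrest genes at 72 h, the ratio of KO to WT in fibroblasts was highest for Btg1, a relative of Btg2, at 2.35, from 42.0 to 214 CPM. It was lowest for Cdkn2b, a kinase inhibitor, at -1.91, and 1 of 12 measured genes was 2-fold higher and 2 were lower, where 12.6% of all genes were 2-fold different.

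Several of the 8 genes were lower in cells with proliferation genes. The share of all genes that were lower in these cells was not measured, so the counts below have no background beside them. Cells with UMIs of at least 3 of 16 proliferation genes, such as Mki67 and Top2a, were set against the other cells of the same class and library wherever both held at least 50 cells, which gave 5 sets in fibroblasts and monocyte/macrophage cells. In all 5 the Cdkn1a CPM was lower in the cells with proliferation genes, with ratios of 0.300 to 0.613 and every interval below 1. In monocyte/macrophage cells of the WT library at 72 h it was 145 CPM in 406 such cells and 252 in 1724 others, a ratio of 0.573 (0.539 to 0.609). The fibroblast ratio in WT at 72 h, 0.300, was 0.0946 (0.0681 to 0.130) without the cell with the most Cdkn1a UMIs in each set. The Btg2 ratios were 0.338 to 0.816, also below 1 in all 5 sets. Mdm2 was lower beyond counting error in 4 of 5 sets (0.363 to 0.738), Ccng1 in 4 of 5 (0.630 to 0.821), Gadd45a in 2 of 4 (0.259 to 0.793), Gdf15 in 2 of 3 (0.137 to 1.08) and Trp53inp1 in 1 of 3 (0.267 to 0.658), and none of these was higher in any set. Phlda3 was lower in 1 set and higher in 1, with ratios from 0.683 to 2.16. Cells with proliferation genes were deeper, with medians of 21696.5 against 10791.5 UMIs in that WT monocyte/macrophage set. The fibroblast medians at 72 h were 41934 against 5679 UMIs in WT, the set with the lowest Cdkn1a ratio, and 3630 against 1023 in KO. The choice of cells by detected genes depends on depth, and the part of depth in these ratios was not tested.

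Across 34 sums of a class and a library with at least 100 cells, from 10 classes, the genes whose log2(CPM + 10) was most like each member among 11383 genes were as follows. These are correlations over sums that share libraries and depth, given as a description. For Cdkn1a they were Ppp1r9b (Pearson r 0.821) and Rac1 (0.815), for Mdm2 Nup98 (0.914) and Washc2 (0.913), and for Ccng1 Mpc2 (0.770) and Mrps21 (0.753). Gdf15 was most like Ch25h (0.741) and Fosl1 (0.730), and Phlda3 most like Selenom (0.964) and Synpo (0.953). For Trp53inp1 they were Cdkn1b (0.934), itself a kinase inhibitor of the p21 family, and Pnrc1 (0.875). Btg2 was most like Irak2 (0.947), and Gadd45a most like Fam32a (0.900) and Gm43672 (0.882). Among the 8 genes, Mdm2 and Btg2 had a correlation of 0.793 and Cdkn1a and Mdm2 one of 0.555, while Phlda3 ran opposite to Btg2 (-0.787) and to Mdm2 (-0.541). The 8 genes thus did not share 1 profile over classes and libraries.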

How the data were processed

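Single-cell RNA sequencing libraries (10x 3') of 6 groups, 1 library each, were used. The authors deposited unnormalized UMI counts for each gene and cell, which came from Cell Ranger 6.0.0 on mm10 per the submitters' processing notes. The barcode and feature tables, which hold identifiers and no scores, were deposited by the authors as the labels of those counts. Later filters are not given in the sources used here.

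Cells with fewer than 200 genes or over 20% mitochondrial UMIs were dropped. Doublets were ranked by Scrublet in scanpy 1.11.5, and the highest ranks were removed at 0.8% per 1000 deposited cells. The 2000 most variable genes gave 30 principal components and 20 neighbours per cell, and the graph was clustered with the Leiden method (igraph 0.11.9, resolution 1) over all libraries without correction. The 38 clusters were named from fixed markers, and 2 stayed unnamed, so that class shares depend on these rebuilt names.

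UMIs were summed per class and library and scaled to CPM. Cells are not replicates, so there are no tests and no p-values. Intervals are exact Poisson, conditional Poisson or Clopper-Pearson intervals at 95%, and a count of 0 is given with the level of 3 counts. All of them cover counting error only. The 28 pairs of class and comparison were fitted over all genes with 50 UMIs. The interval and ratio code was tested on simulated data with known answers.

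The 8 genes and all lists, which hold 24 other p53 targets, 10 regulators, 13 other growth arrest genes, 10 integrated stress response genes, 16 dissociation genes and 16 proliferation genes, were chosen with earlier results of these data known. Named genes are all 8, the highest and lowest measured gene of a described list, and the 2 genes most like each of the 8, except 1 gene that is not reported here, with Trp53 and Trpm4 for reference. The clock genes, the leading genes of clusters, Nr4a1 and Hspa1b beside the dissociation list and Atf3, Atf4, Asns, Bax, Fas, Mki67 and Top2a as examples of their lists are given beside this rule. Identifiers of 32158 of 32285 genes (99.6%) matched GENCODE M21, used for positions only. Alternatives were other Leiden resolutions, filters, count minimums, doublet handling, scaling, fold thresholds, and leaving out the cell with the most UMIs or clusters mostly of 1 library. Software was Python 3.11.15, numpy 2.4.6, scipy 1.17.1, pandas 2.3.3, scikit-learn 1.9.0 and matplotlib 3.10.9.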

Additional observations from a re-analysis of the deposited data

Results flagged for a closer look

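Several pairs of effects under the same contrast pointed in opposite directions beyond counting error, and 3 of them were flagged. Others were seen in endothelial cells for KO against WT. There Cdkn1a had log2 ratios of 1.46 at sham and -0.14 at 24 h of ligation. Btg2 had -0.46 at 24 h of ligation and 0.72 at 72 h. Each group has 1 library, so the difference between the effects was not tested. Phlda3, the AKT antagonist, was higher in KO than in WT endothelial cells at 24 h of ligation (log2 ratio 0.82) and lower at 72 h (-0.69). In fibroblasts Phlda3 was higher at 72 h than at 24 h of ligation in WT (0.68) and lower in KO (-0.74). Btg2 in fibroblasts was lower at 72 h than at 24 h in WT (-0.61) and higher in KO (1.35). The WT value was 0.28 as a mean over cells, so that its direction depends on how cells are weighted, and the KO value was 0.92 without doublet removal. All 3 flagged cases involve the KO library at 72 h, the shallowest of the 6, and the Cdkn1a case does not. The part of class make-up and of carried-over RNA in the 3 flagged cases was not tested.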

How the results depend on the processing

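Of 1853 single-gene ratios under all alternatives, 1729 stayed within the counting interval of the reported value. No ratio past 2-fold changed sign, but 16 of 1270 that lay beyond counting error did. These included Gadd45a for KO against WT at 72 h, from 0.43 to values down to -0.14 in monocyte/macrophage cells under 4 settings and from 0.76 to -0.18 in fibroblasts without doublet removal, and, as a mean over cells, Gdf15 in the same comparison, from 0.70 to -0.995 in fibroblasts and from -0.57 to 0.10 in monocyte/macrophage cells. For 72 h against 24 h in WT neutrophils, Trp53inp1 moved from 0.51 to -0.04 relative to the median gene. Of the 50 ratios past 2-fold, 39 stayed so as a mean over cells, 44 without doublet removal, 46 relative to the median gene, 47 without the cell with the most UMIs, and 48 of 49 with at least 1500 UMIs per cell. The median log2 ratio moved beyond its interval in 13 of 305 cases. For KO against WT at 72 h it was -0.17 without doublet removal and -0.15 as a mean over cells in fibroblasts, against 0.47 as reported, and 0.33 as a mean over cells in monocyte/macrophage cells. For 72 h against 24 h in KO it was -0.86 with at least 1500 UMIs per cell in fibroblasts, 0.66 as a mean over cells and -0.053 relative to the median gene in monocyte/macrophage cells, and -0.62 relative to the median gene in neutrophils. In WT neutrophils the same comparison gave -0.35 relative to the median gene and -0.13 with a minimum of 20 UMIs. For ligation against sham at 24 h, values relative to the median gene were -0.33 in KO monocyte/macrophage cells, 0.19 in WT neutrophils and 0.40 in KO neutrophils, and -0.32 in WT neutrophils without a count minimum. The number of gene and class pairs past the fold was 3 for KO against WT at sham, and 5 without a count minimum. It was 2 at 24 h of ligation, and 1 without doublet removal, 1 without clusters mostly of 1 library, 1 relative to the median gene and 7 at 1.5-fold. At 72 h it was 2, and 1 without such clusters and 8 at 1.5-fold. For ligation against sham in WT it was 10, and 19 at 1.5-fold, and for 72 h against 24 h in WT it was 10, and 5 as a mean over cells and 20 at 1.5-fold. The causes of these shifts were not tested. No paired analysis was possible because each group has 1 library, and no library could be left out for the same reason. The shallow KO library at 72 h limits what can be said of its low genes.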
